A study of Mus musculus with 96 samples.

Results

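The interval of mouse chromosome 4 from 120 to 131 Mb was examined, which lies upstream of an engineered deletion of 4.28 Mb in band 4E2 and outside it. Its members were the HindIII fragments whose end, in the coordinates of the deposited count files (mm9), fell from 120000001 to 131000000. They numbered 3096 of the 48320 HindIII fragments of the chromosome, which is 6.41% of its fragments over 7.07% of its length. The interval holds 151 protein-coding genes, among them Phc2, which the definition of the interval names.

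The libraries were made by PE-4Cseq, in which 1 restriction fragment, the viewpoint, is ligated to fragments that were cross-linked near it, and paired reads then give the allele and the captured fragment. Mouse embryonic fibroblasts (MEFs) came from day 13.5 embryos and were used at passage 4. Deletion lines descended from chimeric males, which carried the deletion and the matching duplication, crossed to C57BL6/J, and control lines from crosses of the same strains without the deletion. Lines E71 and E98 carried the deletion on the 129S5 chromosome (Df) and an intact C57Bl6 chromosome (+DBl6). Lines E117 and E118 carried the intact 129S5 (+129) and C57Bl6 (+Bl6) chromosomes. Each of the 96 libraries was 1 line, 1 allele and 1 of 12 viewpoints, so each of the 48 groups held 2 lines. A p-value measures the spread between those lines, except where libraries were summed or left out and 1 remained in a group. Viewpoints 1 and 2 (147.9 and 148.9 Mb) lay upstream of the deletion, viewpoints 3 to 10 (150.4 to 153.9 Mb) inside it, and viewpoints 11 and 12 (154.9 and 155.5 Mb) downstream. For Df only viewpoints 1, 2, 11 and 12 were used, because the others are absent from that chromosome.

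Contacts between distant loci of a chromosome fall with the distance between them, and on top of that fall mammalian chromosomes are divided into large domains. Active, gene-rich domains tend to meet other active domains, and inactive, gene-poor domains tend to meet other inactive ones. Phc2 encodes a polyhomeotic subunit of Polycomb repressive complex 1, a chromatin complex that keeps developmental genes silent and forms long-range contacts of its own.

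After libraries with under 10000 reads had been left out, 78 libraries remained, with 64058 to 3969613 chromosome 4 reads (median 962004). A fragment with at least 1 read was called captured. Of the 3096 fragments of the interval, from 3.62% to 42.8% were captured per library (median 20.1%). The median number of captured interval fragments was 322 in line E71, 615 in E98, 592 in E117 and 918 in E118, and per the methods E71 and E117 were purified with a column kit and E98 and E118 with beads. In 6 groups, +DBl6 at viewpoints 4, 6, 7 and 8 and +129 and +Bl6 at viewpoint 9, the libraries of both lines shared 83.2% to 91.8% of the interval fragments of the smaller one. The correlation of their log reads, over distant fragments found in both, was 0.939 to 0.971, against 0.0787 to 0.315 in the other 32 replicate pairs. Each such pair was summed and counted as 1 library, which left 72. At viewpoints 10 and 11, 3 pairs of libraries of different groups and lines also correlated above 0.5 (up to 0.719), and shares are given without these viewpoints in the closing section where that turned a direction. In line E117, the pair of libraries of viewpoint 10 fell under the read minimum.

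Most of the interval could be captured. Of the 3096 fragments, 2757 (89.1%) were captured in at least 1 library, against 85.7% in the 11 Mb next upstream, 96.2% in the 11 Mb next downstream and 77.4% over the chromosome. Captures were spread thinly over the libraries: 293 fragments (9.46%) were seen in 1 to 5 of the 72 libraries, 1475 (47.6%) in 6 to 20, 976 (31.5%) in 21 to 40, and 13 in 41 or more. The other 339 were never seen. The fragment captured most often, in 54 of 72 libraries and from 12 of 12 viewpoints, lay at chr4:126121282-126132411 in Eif2c1, which encodes Argonaute 1 of the small RNA pathway, and covers exons of the gene. It was followed by a 1245 bp fragment in Trim62, which encodes a RING-finger protein (chr4:128561049-128562293, 48 libraries), and by a 794 bp fragment between genes at chr4:128513851-128514644, 30562 bp from Zfp362 (48 libraries). A fragment with exons of Zfp362, a zinc finger gene (chr4:128453821-128465642, 46 libraries), came next. The ends of the Eif2c1 fragment and of the fragment near Zfp362, and 1 end of the Trim62 fragment, are shown. Each of these ends was found once, by exact match, among the HindIII ends of the genome. They were read from the NCBIM37 (mm9) genome, 5′ to 3′ into the fragment, and the capitals mark the HindIII site.

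Eif2c1 fragment, upstream end, chr4:126121276-126121335, + strand: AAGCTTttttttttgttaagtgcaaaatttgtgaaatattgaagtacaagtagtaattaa
Eif2c1 fragment, downstream end, chr4:126132352-126132411, - strand: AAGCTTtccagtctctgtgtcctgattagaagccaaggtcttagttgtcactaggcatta
Trim62 fragment, downstream end, chr4:128562234-128562293, - strand: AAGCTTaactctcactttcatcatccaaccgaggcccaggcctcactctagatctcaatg
Fragment near Zfp362, upstream end, chr4:128513845-128513904, + strand: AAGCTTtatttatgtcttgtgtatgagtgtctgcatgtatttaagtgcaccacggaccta
Fragment near Zfp362, downstream end, chr4:128514585-128514644, - strand: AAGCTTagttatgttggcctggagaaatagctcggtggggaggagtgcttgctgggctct

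The opposite case filled the gap of the interval. The 3 bins from 121.0 to 122.5 Mb held 253 of the 339 fragments that were never captured. In the bin from 121.5 to 122.0 Mb, 126 of 164 fragments were never captured and only 27.4% had at least 1 end whose first 30 bases, the length to which reads were trimmed, occurred once among the HindIII ends of the genome. The 3 ends most often repeated in that bin are shown, again with the site in capitals, and occurred 11400, 8760 and 10758 times in the genome. None of the fragments that carry them in the bin was captured in any library.

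Repeated end 1, chr4:121526377-121526406, - strand: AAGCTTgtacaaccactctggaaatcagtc
Repeated end 2, chr4:121586692-121586721, + strand: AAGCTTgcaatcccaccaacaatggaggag
Repeated end 3, chr4:121660833-121660862, - strand: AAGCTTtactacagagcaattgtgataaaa

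The density of captures was then followed in 22 bins of 500 kb. Relative capture was the share of HindIII fragments captured in a bin divided by the same share over the whole interval, so that 1 is the level of the interval, and bins at 1.5 or more were called peaks and bins at 0.5 or less gaps. Over +129 and +Bl6 with all viewpoints summed, no bin was a peak and 3 neighbouring bins were gaps. Relative capture was 0.329 from 121.0 Mb, 0.138 from 121.5 Mb and 0.226 from 122.0 Mb, and each was a gap on 8 of 8 combinations of chromosome and line. Over the 40 groups of 1 viewpoint and 1 chromosome, they were gaps in 31, 39 and 35 groups. Every group in which 1 of these bins was not a gap belonged to viewpoint 6, 7 or 8. On the control chromosomes the bin from 121.0 Mb was at 0.837, 0.69 and 0.687 from viewpoints 6, 7 and 8. From viewpoints 1, 2 and 11 it was at 0.0842, 0.0826 and 0.0695, so the depth of the gap differed between viewpoints. The gap held the genes Gm12886 and Gm12887 in its first bin, no protein-coding gene in its middle bin and 9530002B09Rik in its last. Its bins had unique ends at 80%, 27.4% and 46.8% of fragments, and its first and last bins each included 50000 unknown bases. Counting only fragments with a unique end, relative capture was 0.368, 0.456 and 0.441, so the 3 bins were still gaps by this count. Unique here means unique by exact match, whereas the authors' alignment accepted up to 3 mismatches per read. Whether the bins stay gaps when near copies of an end are also left out was not tested.

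**Figure D1:**
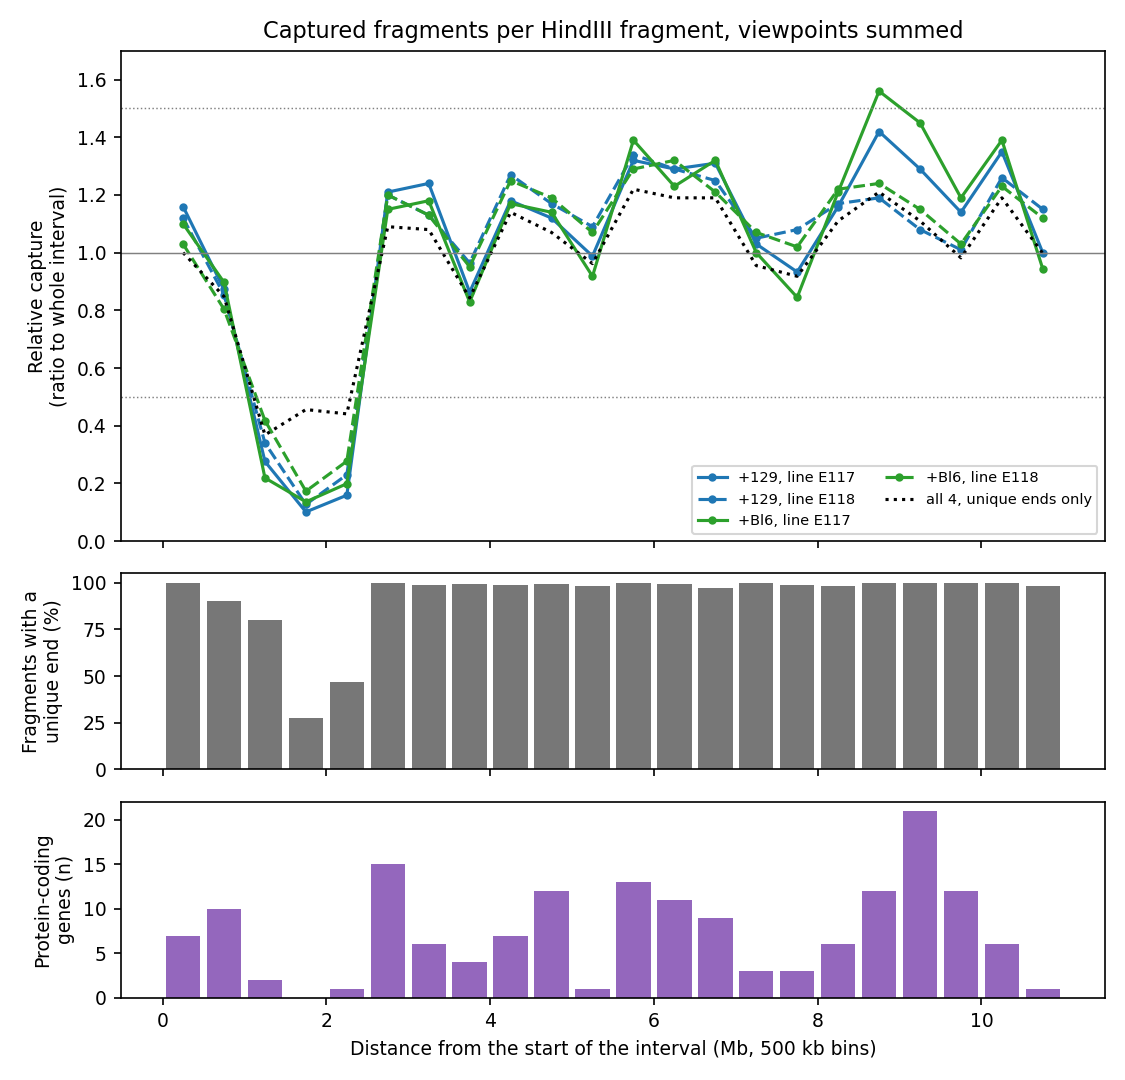
Relative capture (ratio to the whole interval, no unit) against distance from the start of the interval in Mb, for +129 and +Bl6 in lines E117 and E118 with viewpoints summed, above the percentage of fragments with a unique end and the number of protein-coding genes per 500 kb bin. Dotted grey lines mark 0.5 and 1.5. The 4 lines lie between 0.101 and 0.173 in the bin from 121.5 Mb, and the black dotted curve, unique ends only, is at 0.456 there.

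Outside the gap the summed profile was shallow, from 0.85 in the bin from 120.5 Mb to 1.33 in the bin from 125.5 Mb. The bin from 125.5 Mb held 13 protein-coding genes, among them Csf3r, the receptor of granulocyte colony-stimulating factor, Thrap3, a splicing and transcription factor, Col8a2, a collagen chain, and Mtap7d1, a microtubule-associated protein. Its relative capture was 1.32 and 1.34 on +129, 1.39 and 1.29 on +Bl6, 1.34 and 1.26 on +DBl6, and 1.42 and 1.21 on Df, the Df values resting on viewpoints 1, 2, 11 and 12 alone. The bin was above 1 in 37 of 40 groups and a gap in none. The next were the bin from 128.5 Mb (1.32), with 12 genes from Trim62 to Rbbp4, which encodes a histone-binding subunit of chromatin complexes, and the bin from 130.0 Mb (1.29), with Zcchc17, Snrnp40, Nkain1, Sdc3 and Laptm5 among its genes. These behaved otherwise than the bin from 125.5 Mb: the bin from 128.5 Mb was a peak in 16 groups and a gap in 9, and the bin from 130.0 Mb a peak in 17 and a gap in 3. Across the 22 bins, capture on the control chromosomes correlated with GC content at 0.755 and with the number of protein-coding genes at 0.589. With the percentage of fragments captured in at least 1 library it correlated at 0.897. These values are a description over bins that share their libraries. The 3 gap bins lay apart, with capture of at most 7.9%, GC content of at most 40.9% and at most 2 genes. Every other bin had capture of at least 20.4% and GC content of at least 43.6%. Whether the correlations hold without the gap bins was not tested.

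Read density followed the same course with more scatter. With reads in place of captured fragments, 2 bins were peaks on the control chromosomes, and the gap bins had medians over the 8 combinations of chromosome and line of 0.257, 0.101 and 0.236. The bin from 128.5 Mb reached 1.56 and 1.59 on +129 and 1.77 and 1.58 on +Bl6. The bin from 129.0 Mb, with Hdac1, a histone deacetylase, and Lck, a T-cell kinase, reached 1.44 and 1.32 on +129 and 1.73 and 1.64 on +Bl6. Single fragments carried more of the reads where few were captured: the highest fragment held 20.6% of control reads in the bin from 121.5 Mb and 3.13% in the bin from 120.0 Mb.

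The shallow sum hid profiles that ran in opposite directions from different viewpoints. Among the 19 bins with unique ends at 85% of fragments or more, 9 held 9 to 21 protein-coding genes and are called gene-rich here (1251 fragments), and 4 held 1 to 3 and are called gene-poor (553 fragments). The gene-poor bins contained, among others, Grik3, a kainate receptor subunit, Csmd2, a large neural membrane protein, and Matn1, a cartilage matrix protein. These classes were set with the profiles known, so the ratios that follow are a description. Their GC content overlapped, from 43.6% to 49.6% in gene-rich and from 46.4% to 49.4% in gene-poor bins.

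From viewpoint 1, gene-rich bins were captured 4.28 to 11.2 times as often per fragment as gene-poor bins (median 5.07, 8 libraries). In line E118 on +129, for example, 590 of the 1251 gene-rich fragments were captured (47.2%) and 53 of the 553 gene-poor fragments (9.58%). The ratio was above 1 in all libraries of viewpoints 2 (2.99 to 8.07), 3 (1.9 to 2.27), 5 (1.61 to 2.35), 11 (2.99 to 4.77) and 12 (1.1 to 1.78). It was below 1 in all libraries of viewpoints 4 (0.516 to 0.608), 6 (0.327 to 0.458), 7 (0.329 to 0.432), 8 (0.287 to 0.47) and 10 (0.647 to 0.745). From viewpoint 7 in the same line and allele, 286 gene-rich fragments (22.9%) and 305 gene-poor fragments (55.2%) were captured. Viewpoint 9 lay near 1, at 1.08 and 1.1 on +129 and +Bl6 and at 0.907 and 0.919 on +DBl6. The libraries of the other 11 viewpoints thus lay on 1 side of 1 for each viewpoint, on every chromosome measured there. The alleles of a line come from the same cells and are not independent in this respect.

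**Figure D2:**
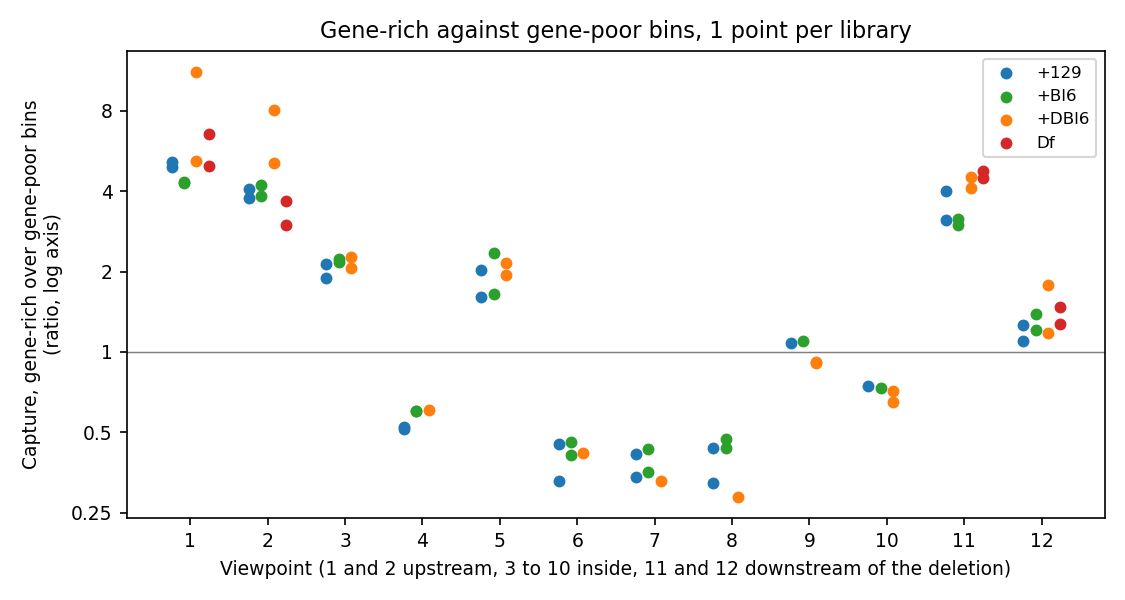
Ratio of the share of fragments captured in gene-rich bins to that in gene-poor bins (log axis, no unit) for each viewpoint, with 1 point per library, coloured by chromosome. Libraries of viewpoints 1, 2, 3, 5, 11 and 12 lie above 1, those of viewpoints 4, 6, 7, 8 and 10 below 1, and those of viewpoint 9 on both sides, from 0.907 to 1.1.

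Reads gave the same side as captured fragments for 11 viewpoints, with ratios on the control chromosomes of 7.82 at viewpoint 1, 5.56 at viewpoint 2 and 4.24 at viewpoint 11, and of 0.307, 0.251 and 0.316 at viewpoints 6, 7 and 8. At viewpoint 9 the ratio by reads was 1.27. The surroundings of the viewpoints differed in the same respect. Within 250 kb of viewpoints 4, 6, 7, 8 and 10 there were 1, 1, 0, 1 and 2 protein-coding genes, and within 250 kb of viewpoints 1, 2, 3, 5, 11 and 12 there were 9, 10, 8, 19, 22 and 14. Viewpoint 9, with the ratio nearest to 1, had 10. Over the 12 viewpoints the log2 ratio correlated at 0.75 with the number of these genes and at -0.127 with the GC content of the same surroundings, given as a description of neighbouring viewpoints that share cells.

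Single bins showed how far the profiles diverged. The bin from 127.5 Mb, most of it the gene body of Csmd2, had a relative capture on the control chromosomes of 0.381 from viewpoint 1, 0.396 from viewpoint 2 and 0.336 from viewpoint 11. From viewpoints 6, 7 and 8 it was 1.99, 2.14 and 1.88. The bin from 129.0 Mb, with 21 genes, had 2.33, 3.39 and 2.55 from viewpoints 1, 2 and 11, the highest bin of the interval from each of them, and 0.197, 0.141 and 0.167 from viewpoints 6, 7 and 8. The same bin was therefore a peak from 3 viewpoints and a gap from 3 others, while from viewpoint 12 it was at 1.13. Single groups kept these sides: the bin from 129.0 Mb was at 2.27, 2.38, 2.43 and 2.47 from viewpoint 1 on +129, +Bl6, +DBl6 and Df, and at 0.11, 0.171 and 0.409 from viewpoint 7 on +129, +Bl6 and +DBl6. The bin from 127.5 Mb was at 0.396, 0.367, 0.138 and 0.145 from viewpoint 1 in the same order, and at 2.11, 2.17 and 2.92 from viewpoint 7.

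**Figure D3:**
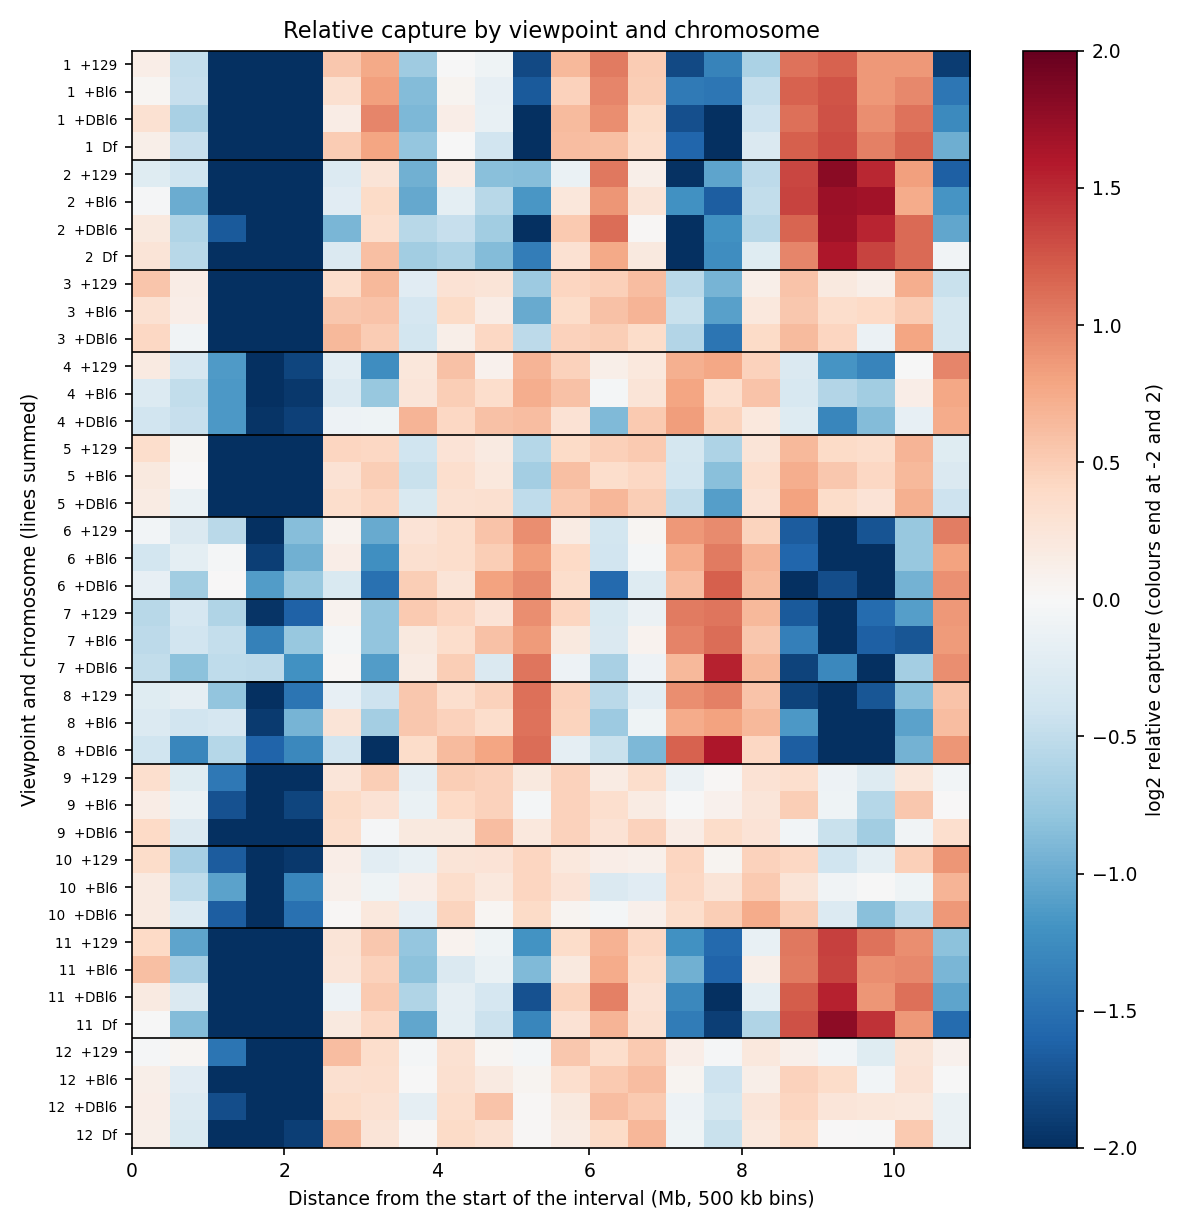
Log2 relative capture (colour, no unit, limited to -2 and 2) in 22 bins of 500 kb, by distance from the start of the interval in Mb, for each viewpoint and chromosome with lines summed; Df has viewpoints 1, 2, 11 and 12. Rows of 1 viewpoint look alike across chromosomes. The gap from 121.0 to 122.5 Mb is blue in nearly all rows, with its first bin palest at viewpoints 6 to 8. The bin from 129.0 Mb turns from red at viewpoints 1, 2 and 11 to blue at viewpoints 6 to 8.

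Profiles therefore followed the viewpoint more than the chromosome. Over 22 bins, groups of the same viewpoint and different chromosomes correlated at 0.843 to 0.992 (median 0.956, 48 pairs). Groups of different viewpoints correlated at -0.622 to 0.988 (median 0.493, 732 pairs). The 2 alleles of a line were not independent samples. At viewpoint 2, +129 and +Bl6 shared 57.9% (E117) and 62.2% (E118) of the interval fragments of the smaller library. Between the lines it was 28.2% on +129 and 29.2% on +Bl6. At viewpoint 6 the alleles of E117 shared 23.4%, against 54.3% between lines on +129. Log reads of the alleles of a line correlated at -0.487 to 0.177. What part this sharing had in the likeness of chromosomes was not tested. Over the 19 bins with unique ends, the control profile of viewpoint 1 correlated at 0.883 with viewpoint 2, 0.801 with viewpoint 3, 0.882 with viewpoint 5 and 0.949 with viewpoint 11. With viewpoints 4, 6, 7, 8 and 10 it correlated at -0.745, -0.898, -0.884, -0.895 and -0.464, and with viewpoints 9 and 12 at 0.278 and 0.511. Viewpoints 1 and 11 lie on either side of the deleted interval and had like profiles, whereas viewpoints 5 and 6 are neighbours whose profiles ran in opposite directions. These coefficients describe bins of shared libraries and carry no test.

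The gene bodies of Csmd2, Grik3 and Macf1, chosen with their values known, ran in these opposite directions too. Csmd2, the longest with 156 fragments, had a relative capture of 0.321 from viewpoint 1, 0.296 from viewpoint 2 and 0.413 from viewpoint 11, and of 2.09, 2.33 and 2.04 from viewpoints 6, 7 and 8. Grik3, with 61 fragments, ran with it, at 0.354, 0.303 and 0.438 from the first 3 and 1.84, 1.73 and 1.89 from the others. Macf1, which encodes a linker of actin and microtubules (103 fragments), ran the other way, at 1.94, 1.53 and 1.45 from viewpoints 1, 2 and 11 and at 0.375, 0.444 and 0.533 from viewpoints 6, 7 and 8. From viewpoint 12 these genes were at 1 (Csmd2), 1.04 (Grik3) and 1.29 (Macf1).

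**Figure D4:**
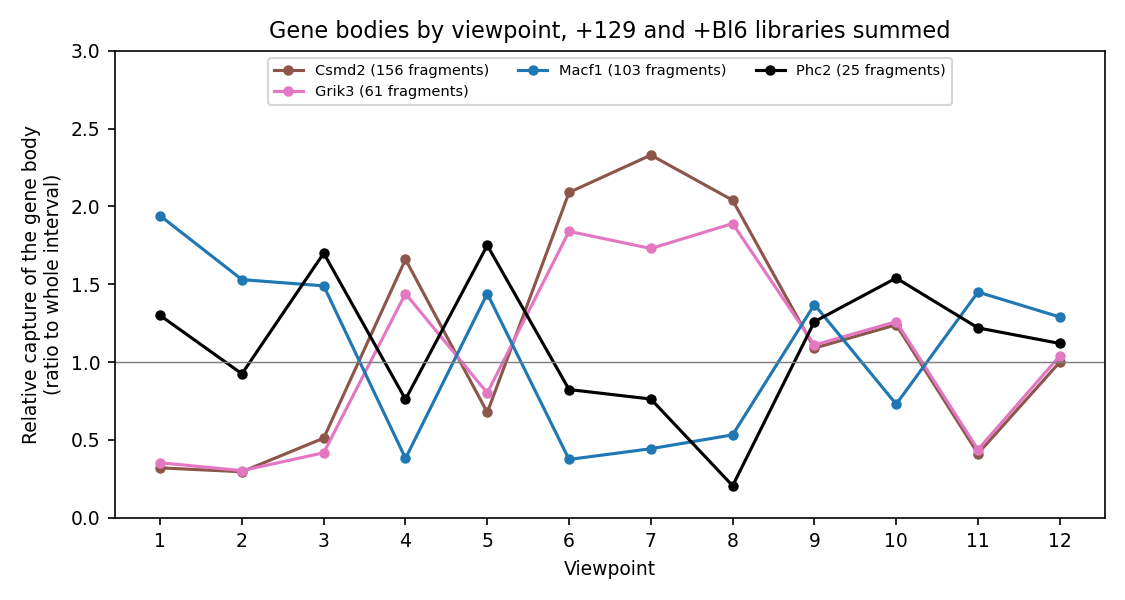
Relative capture of 4 gene bodies (ratio to the whole interval, no unit) from each of 12 viewpoints, with +129 and +Bl6 libraries summed; lines join the values of a gene only to guide the eye. Csmd2 and Grik3 are high where Macf1 is low, and Phc2 goes from 0.206 at viewpoint 8 to 1.75 at viewpoint 5.

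Summed over the 72 libraries, a fragment of the interval was captured in 21.3% of them on average. Among the 91 protein-coding genes with at least 5 fragments, the median was 28%. The highest were Trim62 (43.5%), Zcchc17, a nucleolar zinc-knuckle protein (42.2%), Mtap7d1 (40.8%), Bsdc1 (40.7%) and Eif2c1 (40.4%). Each was above the level of the interval on 8 of 8 combinations of chromosome and line, in the libraries by which they were ranked. Genes of lower rank also were on 8 of 8, such as Nfyc (rank 47 of the 91) and Zmym4 (rank 52). The lowest were Zfp69 (16.4%), Zmpste24, the protease that matures prelamin A (14.1%), Gm853 (11.9%), Gm12887 (9.44%) and 9530002B09Rik (4.51%). Gm12887 and 9530002B09Rik lie in the gap, and 6 of 8 fragments of 9530002B09Rik had a unique end.

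Over all 151 protein-coding genes of the interval the median relative capture was 1.33, with 119 above 1. Of 12 chromatin and transcription genes 11 were above 1 (median 1.31), from Hdac1 at 0.994 to Zfp362 at 1.8. Of 11 RNA-binding genes 10 were above 1 (median 1.38), with the neighbouring Argonaute genes Eif2c1, Eif2c3 and Eif2c4 at 1.9, 1.39 and 1.29. Of 10 genes of the matrix and cytoskeleton 9 were above 1 (median 1.37), and Marcksl1, with 1 fragment, was at 0.195. Of 9 genes of a list named for neural genes, which is not confined to them, 7 were above 1 (median 1.4). The others were Grik3 at 0.917 and Rims3, a presynaptic protein, at 0.777. All 5 genes of a list named for blood cells, which also holds Oscp1 and Fabp3, were above 1 (median 1.88), with Csf3r at 2 and Lck at 1.88 on 4 and 6 fragments.

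Fragment class and composition went with capture. The 138 fragments with the start of a protein-coding gene were captured in 28.8% of libraries on average, the 1278 other fragments of gene bodies in 25.8% and the 1680 fragments outside them in 17.3%. The order held on 8 of 8 combinations of chromosome and line, and genic fragments stayed above intergenic ones on 8 of 8 when only fragments with a unique end were counted. Fragments with a start were also longer, with a median of 6129 bp against 2214 bp and 2284 bp. In 4 equal classes of length the mean was 17.5%, 21.8%, 22.6% and 23.5% from short to long, and in 4 equal classes of GC content it went from 14.9% through 21.5% and 24.1% to 24.8%. What part length and GC content had in the difference between fragment classes was not tested.

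Phc2 lies at chr4:128331982-128430125 on the + strand, spans 98.1 kb and overlaps 25 HindIII fragments, all of them captured at least once. Its fragments were captured in 25.3% of libraries on average, which is 1.19 times the level of the interval and rank 58 of the 91 genes with 5 fragments or more. Capture was uneven along the gene. The fragment with its 3′ end, which reaches into A3galt2 (chr4:128424031-128437107), was captured in 36 of 72 libraries, and that with its 5′ start (chr4:128329342-128342198) in 14. Inside the gene, the fragments at chr4:128364783-128367837 and chr4:128376766-128380282 were seen in 2 libraries and in 1.

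By viewpoint, Phc2 followed neither course fully. Relative capture on the control chromosomes was 1.7 and 1.75 from viewpoints 3 and 5, 1.54 from viewpoint 10, and 1.3, 0.925, 1.22 and 1.12 from viewpoints 1, 2, 11 and 12. From viewpoints 4, 6 and 7 it was 0.761, 0.824 and 0.763, and from viewpoint 8 it was 0.206. At viewpoint 5 from 52% to 76% of its 25 fragments were captured per library. At viewpoint 8, 0 and 1 were captured on +129, 0 and 2 on +Bl6 and 5 in the summed library of +DBl6, and where 0 of 25 was seen, a share of up to 12% is allowed (3 counts of 25). Intervals and such limits cover counting error only, since PCR reads carry no molecular identifiers.

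Whether the deletion went with a change of Phc2 was asked at the viewpoints where both lines of both chromosomes could be used. From viewpoints 1, 2, 11 and 12, Df captured 5% of Phc2 fragments in E71 and 26% in E98, and +129 captured 14% in E117 and 32% in E118. The lines overlapped (log2 ratio -0.57, exact two-sided permutation p = 0.667). The smallest p that 2 lines against 2 can reach is 0.333, so none of these tests could pass 0.05. The intact chromosome had 21.3% and 34% on +DBl6 against 31.3% and 44% on +Bl6 over 6 viewpoints (log2 ratio -0.45, exact p = 0.667). The control alleles had 17.2% and 34% on +129 against 21.2% and 34.8% on +Bl6 over 10 viewpoints (log2 ratio -0.13, exact p = 0.667). Relative to the capture of the whole interval in the same libraries, the 3 log2 ratios were -0.17, -0.02 and -0.10. The number of captures moved with these values: within each chromosome, the line with fewer interval fragments captured also had the lower share of Phc2.

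The share of the whole interval was then set against the same denominator on every chromosome, the captured fragments of chromosome 4 outside 20 kb of the viewpoint and outside the deleted interval. The latter was located in the counts at chr4:150083826-154361190 (4.28 Mb, 1096 fragments). Over libraries the share ran from 8.45% to 24.9% of captured fragments (median 16.6%) and from 1.72% to 29.1% of reads (median 16.2%). It was lowest at viewpoint 2, at 9.44% to 11.5% on the control chromosomes, and reached 18.2% to 24.9% at viewpoints 6 to 8. In E117 the share at viewpoints 6 to 8 was above that in E118 on both alleles, for example 22.6% against 18.2% on +129 at viewpoint 6. The Wilson 95% intervals of that pair, 20.4% to 25.1% and 17.1% to 19.3%, did not overlap, but they cover counting error only and do not set the lines apart. The E117 library had 71464 chromosome 4 reads and 1740 captured fragments, and the E118 library had 1828131 and 5794. What part this depth had in the share was not tested.

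**Figure D5:**
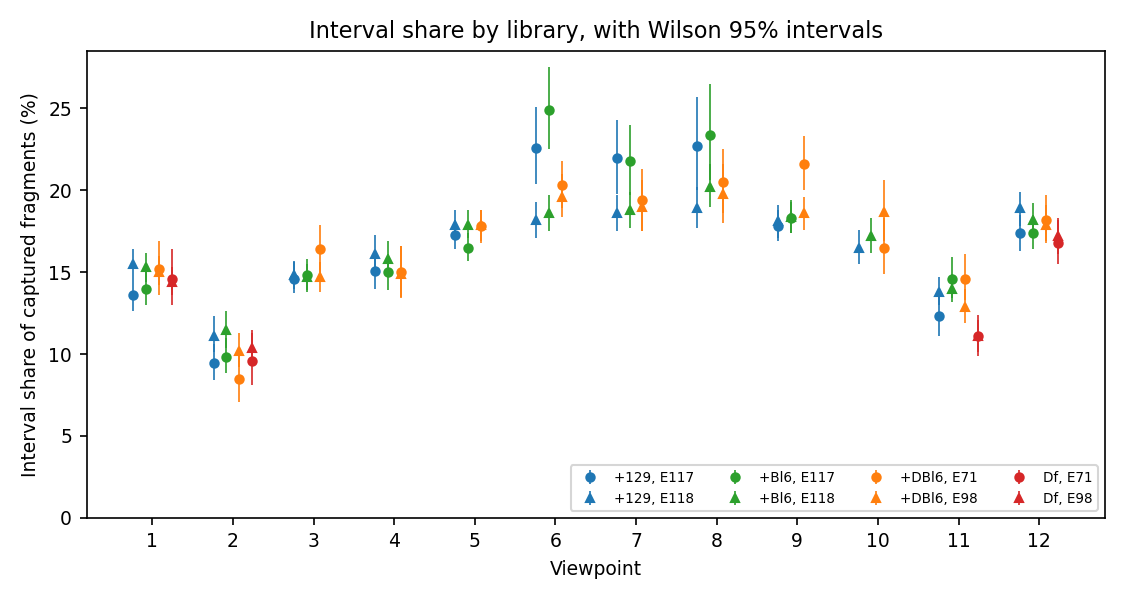
Share of captured chromosome 4 fragments that lay in the interval (%), by viewpoint, with 1 point per library and Wilson 95% intervals for counting error; colours are chromosomes, circles lines E71 and E117, triangles lines E98 and E118, and all 78 libraries are drawn as labelled. Fragments near the viewpoint or in the deleted interval are left out, so viewpoints inside the deletion are not on the same base as the others. Df lies under both +129 libraries at viewpoints 11 and 12 and among them at viewpoints 1 and 2.

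At the 4 viewpoints outside the deletion, Df placed 12.7% (E71) and 13% (E98) of its captured fragments in the interval, and +129 placed 12.9% (E117) and 14.6% (E118), as geometric means over viewpoints. The interval shares over several viewpoints given below are geometric means as well. Df E98 lay above +129 E117, so the groups overlapped (log2 ratio -0.09, exact two-sided p = 0.667). With at least 5 reads per captured fragment they did not overlap (log2 ratio -0.33, exact p = 0.333), and without E117 or E118 the log2 ratio was -0.18 or -0.0007. At viewpoint 11 the share was 11.1% in both Df lines against 12.3% and 13.8% on +129, and at viewpoint 12 it was 16.8% and 17.2% against 17.4% and 18.9%. The lines did not overlap at these viewpoints, with exact p = 0.333, the smallest possible, and 0.666 after adjustment over 4 viewpoints. At viewpoints 1 and 2 the means were 14.5% ± 0.16 and 9.97% ± 0.556 on Df (SD, 2 lines) and 14.5% ± 1.33 and 10.3% ± 1.2 on +129. At viewpoint 11 a further doubt applies, since the Df library of E71 and the +129 library of E117 correlated at 0.685 at shared distant fragments.

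By reads, Df placed 5.32% and 4.45% in the interval and +129 placed 6.43% and 5.99%, without overlap (log2 ratio -0.35, exact p = 0.333). Compared with the 11 Mb next downstream instead, at the same 4 viewpoints, capture per fragment in the interval was 0.707 and 0.702 times as high on Df. It was 0.76 and 0.807 on +129, 0.798 and 0.795 on +Bl6 and 0.818 and 0.751 on +DBl6, so both Df lines lay under the other 6. Compared with the 11 Mb next upstream, the ratio was 1.58 and 1.5 on Df and 1.51 and 1.58 on +129, with full overlap. The deletion shortens the distance from viewpoints 11 and 12 to everything upstream of it on Df, and distance and genotype cannot be told apart in these ratios.

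On the intact chromosome of the same cells, +DBl6 placed 14.7% and 14.5% and +Bl6 14.3% and 15.1% in the interval over 6 viewpoints (log2 ratio -0.01, exact p = 1), and by reads 8.6% and 7.96% against 8.69% and 8.84% (log2 ratio -0.08, exact p = 0.333). The control alleles gave 16.1% and 16.2% on +129 and 16.6% and 16.3% on +Bl6 over 10 viewpoints (log2 ratio -0.03, exact p = 0.333), and by reads 12.2% and 11.9% against 13% and 12.4% (log2 ratio -0.07, exact p = 0.333). These are the alleles of the same lines, and as 2 pairs, with +129 lower in both lines for both measures and for Phc2, the exact sign-flip p is 0.5, the smallest that 2 pairs allow.

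Single bins were tested with edgeR's quasi-likelihood test on captured fragments with viewpoints summed, adjusted over all bins of the chromosome. For Df against +129, 0 of 22 bins of the interval passed an adjusted p of 0.05, against 0.34% of the 294 bins of the chromosome tested, and 1 had an unadjusted p under 0.05. That bin was the one from 127.5 Mb, with Csmd2: Df captured 20 fragments in E71 and 54 in E98, and +129 captured 58 in E117 and 95 in E118 (log2 fold change -0.52, SE 0.194, adjusted p = 0.601). Log2 fold changes over the 22 bins ran from -0.52 to 0.21 (median -0.01), with a median SE of 0.194. In simulated counts with several bins changed at once, the fit recovered 52.6% of 2-fold and 87.3% of 4-fold changes, so a 2-fold change of 1 bin could have been missed. Recovery of a bin changed alone was not simulated.

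For +DBl6 against +Bl6, 0 of 22 bins passed, against 0% of 295 over the chromosome, and 1 had an unadjusted p under 0.05. It was the bin from 124.5 Mb, with Cdca8, a subunit of the chromosomal passenger complex, among its 12 genes, at 136 and 218 captured fragments in E71 and E98 and 169 and 254 in E117 and E118 (log2 fold change 0.29, SE 0.136, adjusted p = 0.857). On +DBl6 19 of the 22 bins were higher, by a median of 0.10, but 13 were with total counts in place of TMM scaling (median 0.02) and 13 without E71 (median 0.01). For +129 against +Bl6, 0 of 22 bins passed, against 0% of 296, and 0 had an unadjusted p under 0.05, with log2 fold changes from -0.54 to 0.14. The largest was the bin from 121.5 Mb in the gap, with 26 and 55 captures against 41 and 81 (SE 0.283, adjusted p = 0.995). DESeq2 also called 0 bins of the interval in each of the 3 comparisons of captured fragments.

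Reads in the same bins were tested for each viewpoint apart. For +DBl6 against +Bl6 these included viewpoints with 1 library in a group: +DBl6 at viewpoints 4, 6, 7 and 8, and +Bl6 at viewpoints 9 and 10. There the spread came from the other group alone, so the counts of bins for this comparison are not all tests of 2 lines against 2. For Df against +129, edgeR called 0 of 81 bins of the interval (0.0931% over the chromosome), with 1 at an unadjusted p under 0.05. For +DBl6 against +Bl6 it called 0 of 258 (0.0632% over the chromosome), with 17 at an unadjusted p under 0.05, and for +129 against +Bl6 it called 0 of 216 (0.0355% over the chromosome), with 9. DESeq2 called 0, 4 and 1 of these bins, against 0.652%, 3.69% and 1.03% of all bins tested over the chromosome. With edgeR, 1 bin was called for +DBl6 against +Bl6 when bins were shifted by 250 kb (0.286% over the chromosome) and 2 without E98 (0.945%). For +129 against +Bl6, 16 of 238 were called with all libraries as labelled, that is, with the like libraries of viewpoint 9 kept apart (8.03%). The median SE of the log2 fold change was 0.902, 0.702 and 0.665, and in simulated counts 1.05%, 2.15% and 2.94% of 4-fold changes were recovered. A 4-fold change of reads in 1 bin would thus mostly have been missed with these libraries.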

How the data were processed

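The authors assigned read pairs to an allele by a polymorphism in the viewpoint read, trimmed the other read to 30 bases and aligned it with Bowtie to sequences bordering HindIII sites of mm9, keeping unique matches. The deposited counts used here give the reads on each HindIII fragment of chromosome 4 and are not corrected for fragment length, GC content or mappability, so relative capture within a bin carries all of these. Another 16 deposited tables hold starts and ends of regions of differential contact and were not used. Bowtie's version is not given in the sources used here.

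Fragment ends matched the 48319 HindIII sites of chromosome 4 in NCBIM37, and genes are those of its annotation. The uniqueness of fragment ends was computed by exact match over 842075 sites of the genome, with 30 bases including the site. The authors' alignment accepted up to 3 mismatches per read. Libraries under 10000 reads were left out, and replicate libraries of a group whose log reads correlated above 0.9 at shared fragments (at least 50, over 2 Mb from the viewpoint) were summed. Df libraries of viewpoints 3 to 10 (16) were not used. Shares of the interval were compared by exact two-sided permutation tests over lines, at each viewpoint with Benjamini-Hochberg adjustment. They were also compared as means of log2 shares over the viewpoints with both lines of both chromosomes, printed as geometric means. Bins of 500 kb, those with at least 5 captured fragments or 10 reads in 50% of libraries, entered quasi-likelihood tests (glmQLFTest of edgeR 4.0.16, TMM scaling, R 4.3.3) outside the deleted interval, with DESeq2 1.42.0 as alternative. Both kinds of fit were tested on simulated data, with known bins changed 2-fold or 4-fold. Python 3.11.15, pandas 2.3.3, numpy 2.4.6, scipy 1.17.1, statsmodels 0.14.6 and matplotlib 3.10.9 were used.

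The genes named are Phc2, the genes of the 3 highest and 3 lowest bins, the 5 highest and 5 lowest genes with at least 5 fragments, the genes at the 5 fragments captured most often, and members of the lists; bins were named where they passed the threshold, and the others named here, with Csmd2, Grik3 and Macf1, were chosen with their values known. The interval, lists and gene classes were chosen with earlier results of these data known. The blood cell list had 1 listed gene outside the interval. Results of some genes that this rule names are not reported here. The alternatives added after seeing the data were leaving out viewpoints 10 and 11 for the shares, counting fragments with a unique end only, and dividing Phc2 by the interval.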

Additional observations from a re-analysis of the deposited data

Results flagged for a closer look

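At viewpoint 2 the ratio of capture in gene-rich to that in gene-poor bins moved in opposite directions on the alleles of the deletion lines. It was 3.67 (E71) and 2.99 (E98) on Df, below 4.07 (E117) and 3.79 (E118) on +129, a log2 ratio of -0.24. It was 8.07 and 5.1 on +DBl6, above 4.21 and 3.83 on +Bl6, a log2 ratio of 0.71. Every library of each allele moved the same way, and the difference between the alleles was not tested. The +DBl6 value of 8.07 rests on 4 captured gene-poor fragments and 73 gene-rich ones, and the Df library of the same line on 10 and 83. These E71 libraries had the fewest captured interval fragments of the viewpoint, 112 and 125, from 964708 and 930341 chromosome 4 reads.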

How the results depend on the processing

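Of 166 recomputed values, 143 kept their direction and their side of the threshold or moved by less than the spread, 12 moved and 11 turned; no test of shares or of Phc2 could pass 0.05 under any setting with 2 lines against 2. As log2 ratios, the share of captured fragments turned to 0.0384 for Df against +129 with only fragments at least 5 Mb upstream of viewpoint 1 as denominator, and ran from -0.18 to -0.0007 when lines were left out. For +DBl6 against +Bl6 it turned to 0.0934 with that denominator, 0.0429 with a viewpoint zone of 1 Mb, 0.000268 without viewpoints 10 and 11 and 0.000703 with no read minimum, and ran from -0.0361 to 0.0284 when lines were left out, the highest without E118. For +129 against +Bl6 it was 0.0102 with no read minimum. The share of reads for +DBl6 against +Bl6 turned to 0.104 and 0.0878 with the far denominator and the 1 Mb zone. For Phc2 on Df against +129, leaving out 1 line gave -2.2 to 0.177, with 0.177 without E71 and 0.147 without E118. The highest bin, at 1.33, was 1.39 with at least 5 reads per captured fragment, 1.4 by reads, 1.19 over fragments ever captured and 1.22 with unique ends only, and the lowest was 0.532 and 0.456 in the last 2 of these; 2 bins were peaks by reads. For reads in single bins, called bins of the interval for +DBl6 against +Bl6 were 4 with DESeq2 (3.69% over the chromosome), 1 with bins shifted by 250 kb (0.286%), and 0 to 2 when lines were left out (2 without E98, 0.945%); for +129 against +Bl6 they were 1 with DESeq2 (1.03%) and 16 of 238 with all libraries as labelled (8.03%). The cause was not tested.

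Fits with the line, or the purification kit shared by lines of different genotype, as a replicate block called 0 bins of the interval in each of the 6 tests; summed libraries could not be blocked. At viewpoints 9 and 10 only 1 library of each control allele remained, and leaving out a line in the bin fits of +129 against +Bl6 would have left 1 against 1, so neither was run.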
